A study of Mus musculus with 19 samples.

Results

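Genes that respond to interferon were measured on arrays of sciatic nerve from the inbred mouse strain DBA/2J, with and without diabetes and with and without rosiglitazone. A list of 37 such genes was taken, and 35 of them had a probe set that carried only their own symbol. Where a gene had several such probe sets, the brightest on average across the 19 arrays stands for it, and all 35 passed the filter on low values that left 13460 of 18193 genes for testing. Ifi44 and Isg15 were listed but had no probe set of their own symbol alone, so no value is given for them. The groups were 4 control mice given vehicle (CV), 5 diabetic mice given vehicle (DV), 5 control mice given rosiglitazone (CR) and 5 diabetic mice given rosiglitazone (DR). All mice were of the same strain, and each array is named by its group and the number in its title. Diabetes was produced with streptozotocin, which destroys the insulin-producing cells of the pancreas and so gives a model of type 1 diabetes. Rosiglitazone activates PPAR gamma, a nuclear receptor, and the study asked whether it alters neuropathy in this model. Values are log2 intensities throughout, and a difference of 1 is a doubling.

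Interferons are cytokines released when cells sense viral nucleic acid or other signs of infection or damage. Type I interferons act mainly at the interferon-stimulated response element, a short promoter sequence, while interferon gamma acts mainly at another, the gamma-activated site. The induced genes encode RNA sensors, transcription factors that amplify the response, antiviral effectors, GTPases that attack the vacuoles of intracellular microbes, and the machinery that loads peptides on MHC class I. Macrophages, endothelial cells and Schwann cells of peripheral nerve can all respond to interferon. In whole nerve, fewer cells of a type and less RNA per cell cannot be told apart.

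Promoters bear on genes that may move together, so the start regions of the listed genes were searched for both binding sites. Windows of 300 bases, 250 before and 50 after the annotated start, were available from RefSeq (GRCm38.p6) for 28 of the 37 genes, and those for Dhx58, Oas2, Mx1, Mx2, Rtp4, Parp14, Usp18, Iigp1 and Tap2 were not used here. The core of the interferon-stimulated response element, taken as GAAA, any 2 bases and GAAA on either strand, stood in 15 of the 28 windows (53.6%), against 3.99% of 27025 windows of the same length. TTCNNNGAA, the gamma-activated site, which reads alike on both strands, stood in 8 of 28 (28.6%), against 9.55% of all windows. Eif2ak2, Bst2, Igtp and Gbp7 held both motifs. Irf7, Oasl1 and Tap1, described in detail below, held neither in this window. One stretch is shown for each of 3 roles, as examples of where the response element lies, with the element in capitals and the sequence read 5′ to 3′ on the gene's strand. The Stat2 stretch is chr10:128270248-128270320 on the plus strand, with the element 222 to 213 bases before the start. The Rsad2 stretch is chr12:26456528-26456607 on the minus strand, with the element 120 to 111 bases before the start. The Igtp stretch is chr11:58199487-58199555 on the plus strand, with the element 34 to 25 bases before the start.
Stat2: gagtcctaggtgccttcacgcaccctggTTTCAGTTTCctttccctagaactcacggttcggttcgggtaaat
Rsad2: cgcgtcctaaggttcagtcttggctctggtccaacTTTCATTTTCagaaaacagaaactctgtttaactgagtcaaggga
Igtp: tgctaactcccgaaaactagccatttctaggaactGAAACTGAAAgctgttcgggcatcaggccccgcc

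The arrays were not alike in RNA integrity or in their levels of sensory neuron markers. For Gapdh, the control probe set at the 3′ end minus that at the 5′ end, a gap that widens with RNA breakdown, gave 3.71 in DV706, 4.38 in DV707 and 1.75 in DR716, against 1.00 to 1.37 on the other 16 arrays. Markers of sensory neurons, whose cell bodies lie in ganglia outside the nerve trunk, were low in 5 arrays, DV706, DV707, DV709, CR715 and DR716. Their mean level, relative to each gene's mean over the 19 arrays, was -3.69 to -3.17 there and -0.06 to 2.23 elsewhere, over 10 of 11 listed markers. All samples are labelled sciatic nerve. Mbp, myelin basic protein, ran from 13.83 to 14.44 and Pmp22 from 13.82 to 14.34. Other Schwann cell markers varied more, with Mag at 6.76 to 9.78 and S100b at 11.25 to 13.60. The mean level of the 6 measured Schwann cell markers was -0.96 in CR715, -0.48 in DR716 and -0.46 in DV707. It was 0.23 in DV706 and 0.22 in DV709, and -0.06 to 0.32 on the other arrays. Results below are given for all 19 arrays, without DV706, DV707 and DR716, and where it matters without all 5 arrays low in neuron markers.

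The interferon response genes followed individual arrays as much as groups. Taking each gene relative to its mean, the median of the 35 genes was 0.61 in DV706, 0.37 in DV707 and 0.30 in DR716, and lay between -0.37 (CR713) and 0.11 (CR715) on the rest. The pooled SD of this median within groups was 0.21. Of the 35 genes, 26 were highest in one of those 3 arrays, 12 in DV706, 6 in DV707 and 8 in DR716, and 11 had exactly these arrays as their 3 highest: Ifih1, Irf1, Oasl2, Rtp4, Xaf1, Parp14, Trim21, Iigp1, Gbp3, Gbp7 and Tap1. The array CR713 was at the other end, holding the lowest value of 12 genes. The shares of all tested genes that were highest or lowest on these arrays are not given here, so these counts have no background. The median deviation of all tested genes was 0.04 in DV706, 0.06 in DV707 and 0.04 in DR716. The 3 high arrays are those with the largest Gapdh differences, and all 3 are among the 5 low in neuron markers. DV709 and CR715, also low in neuron markers, had medians of -0.18 and 0.11.

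**Figure D1:**
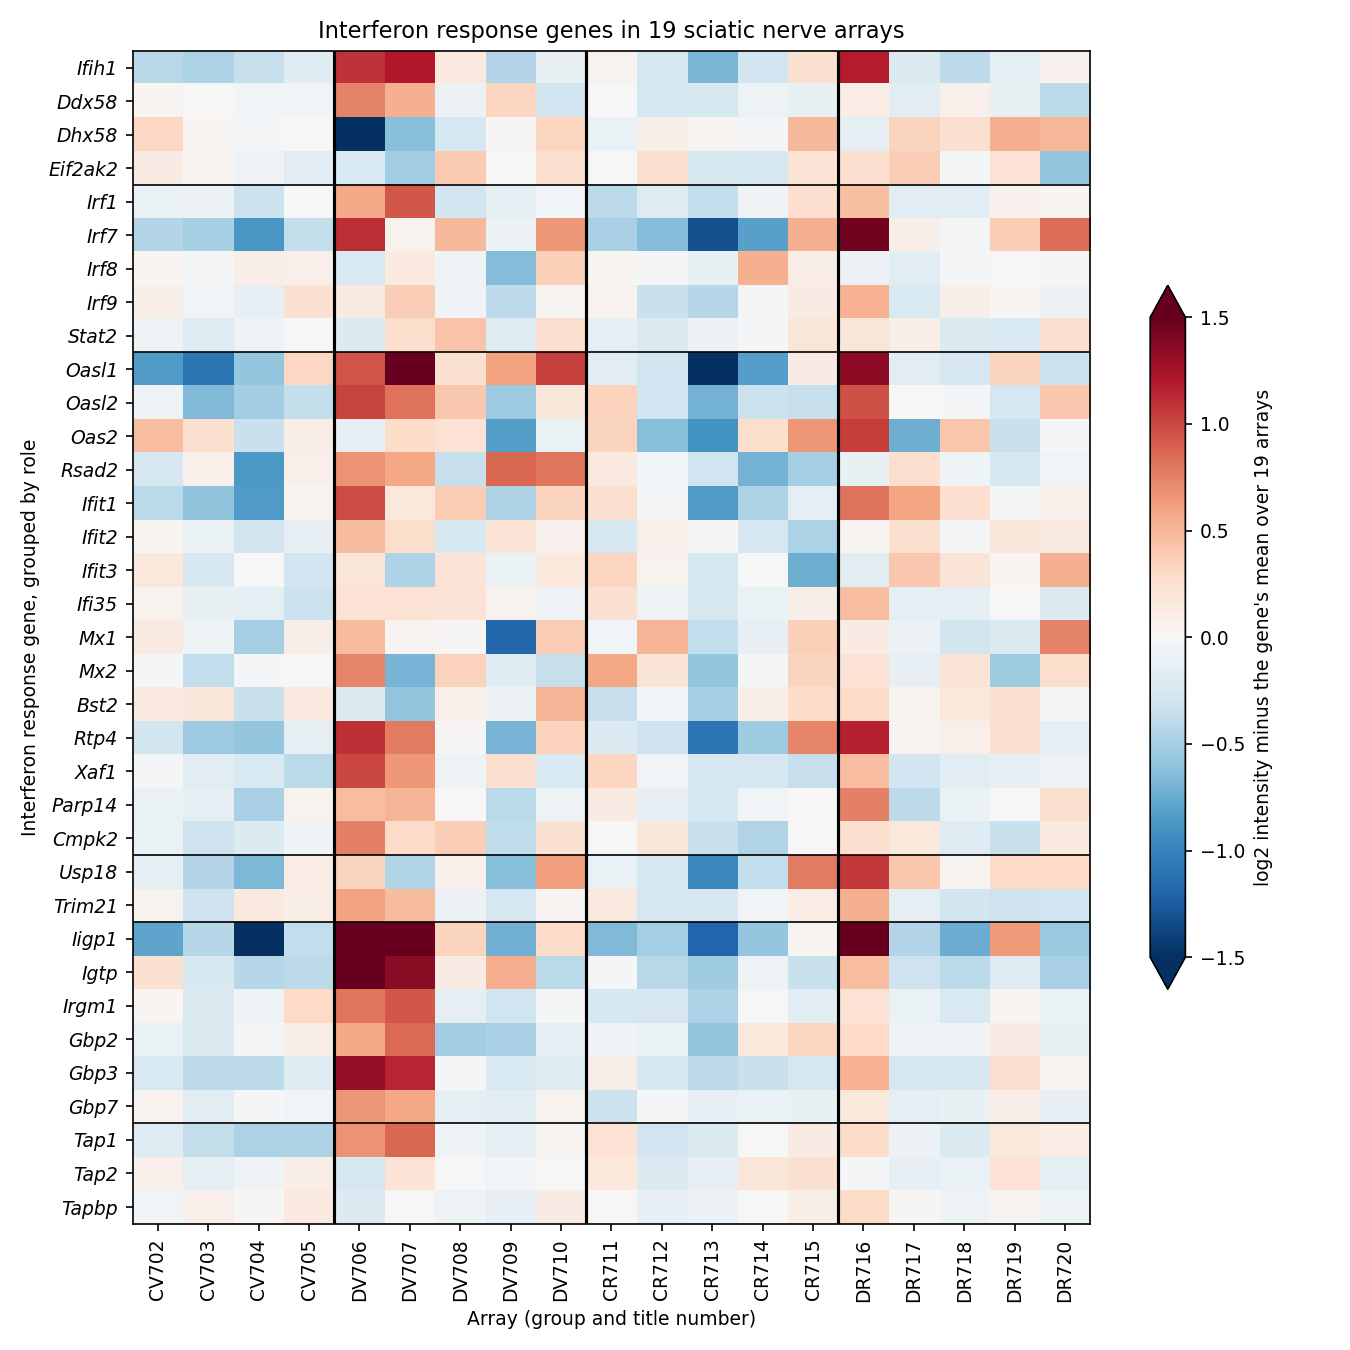
The 35 interferon response genes (rows, grouped by role) on the 19 arrays (columns, by group), each shown as its log2 deviation from its own mean over all arrays. Columns DV706, DV707 and DR716 hold the highest value of 26 genes, and CR713 the lowest of 12. The shares of all tested genes with such values are not given here.

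Markers of other cell types were set beside these levels. The mean of 12 endothelial markers was 1.01 in DV706, 0.66 in DV707 and 0.02 in DR716, with a range of -0.44 to -0.14 in control vehicle arrays and -0.36 to 1.01 in diabetic vehicle arrays. Macrophage markers, 14 of 14 measured, were at -0.47, 0.54 and 0.52 in the same 3 arrays, with a range of 0.03 to 0.27 in control and -0.77 to 0.54 in diabetic vehicle arrays. T cell markers, 7 of 8 measured, ran from -0.60 to 0.12 in control and from -1.02 to 0.56 in diabetic vehicle arrays. The neutrophil list ran from -2.81 in a diabetic vehicle array to 4.16 in CV703. The part of any of these cell types in the interferon gene values was not tested.

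**Figure D2:**
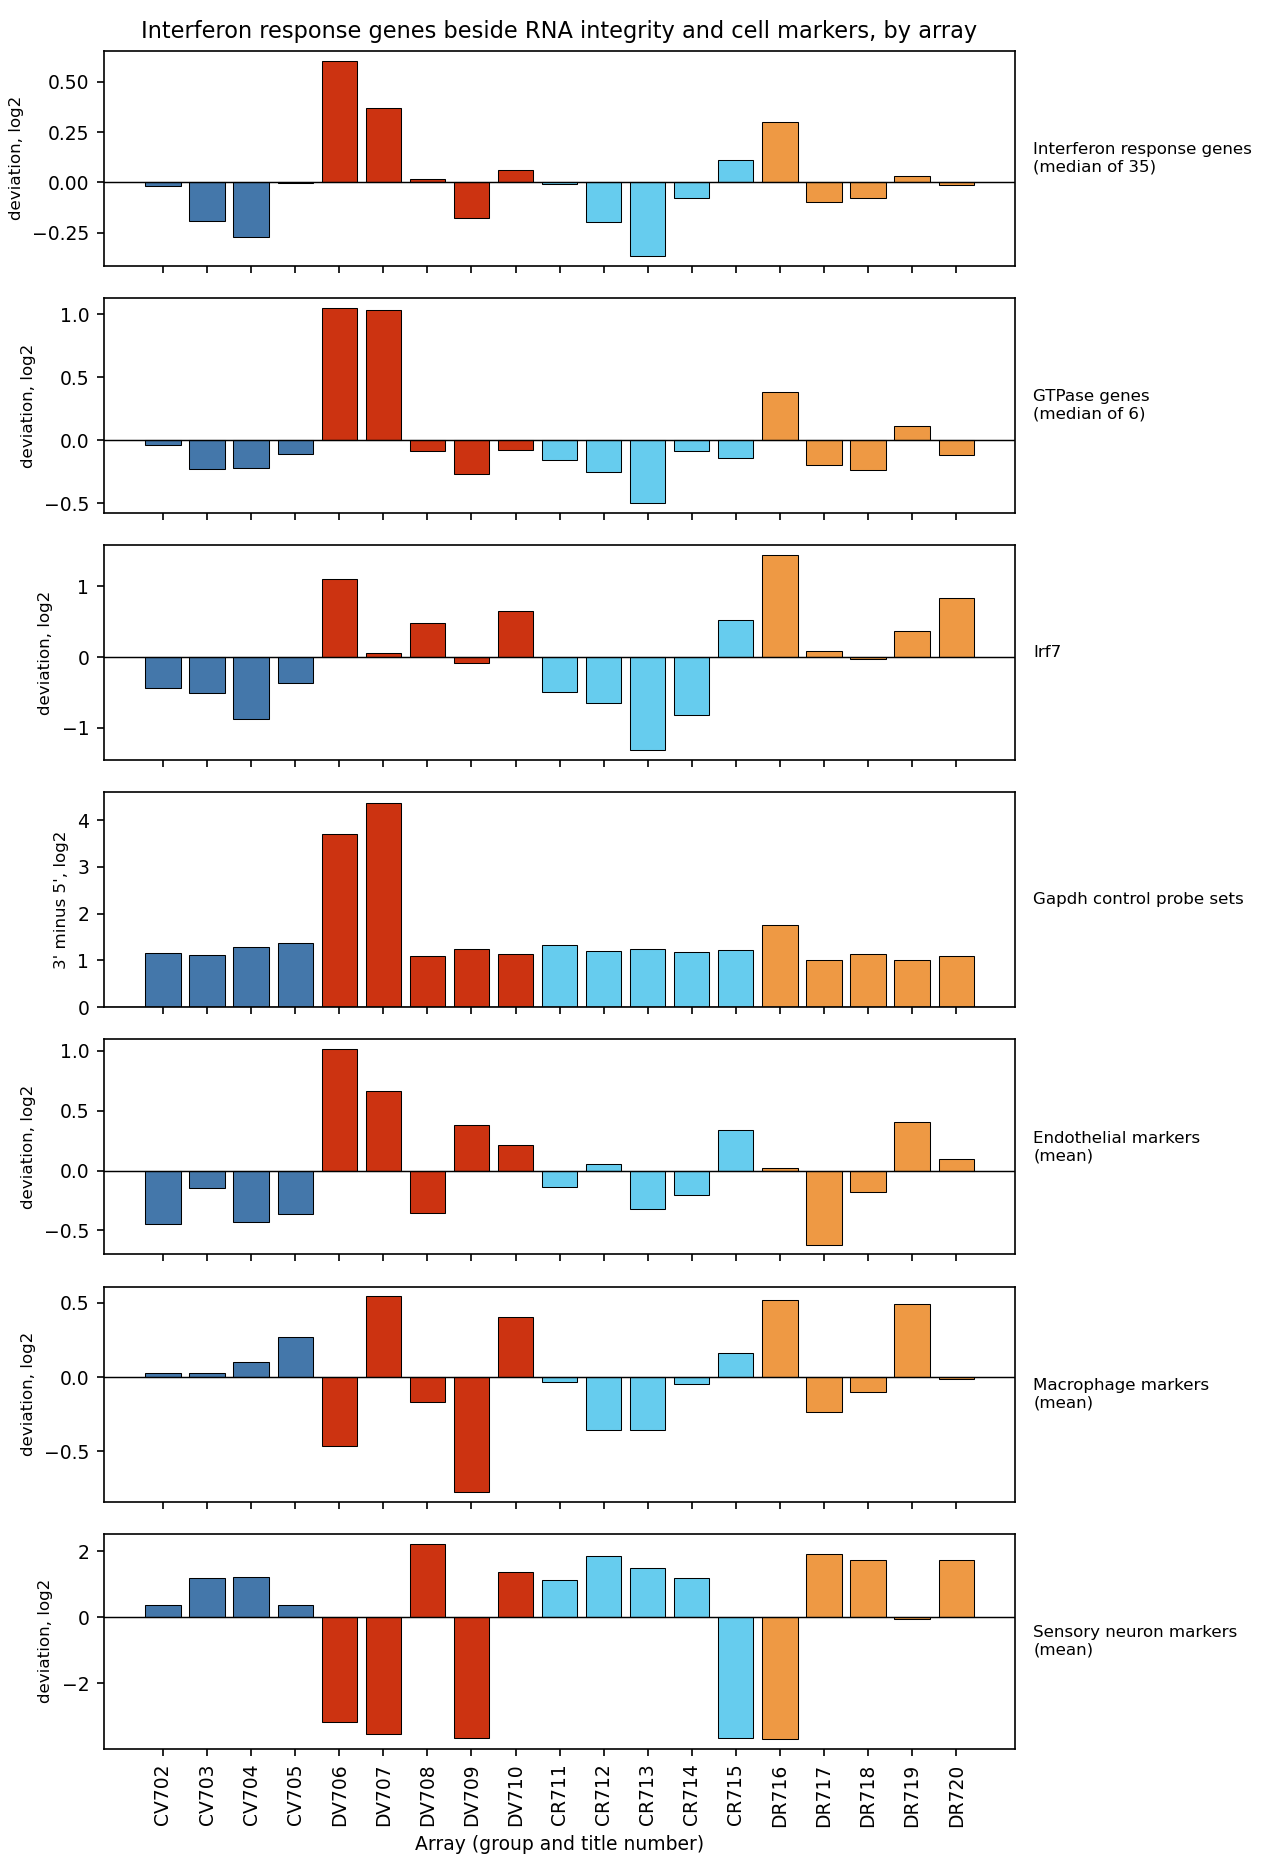
Levels by array (blue CV, red DV, light blue CR, orange DR). From top to bottom: the median deviation of the 35 interferon response genes, the median of the 6 GTPase genes, Irf7, the Gapdh 3′ minus 5′ difference, and the mean level of endothelial, macrophage and sensory neuron markers, all on the log2 scale. The median of the interferon genes was highest in DV706, DV707 and DR716, while Irf7 was also above its mean in DV708, DV710, CR715, DR717, DR719 and DR720.

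Under vehicle, interferon response genes lay higher in diabetic than in control nerve in 27 of 35 cases, where 52.9% of all tested genes lay higher. The median difference was 0.26, against 0.03 over all 13460 genes. Fitted with limma over all genes, 0 of the 35 passed an adjusted p of 0.05, as did 0 of all genes, and the smallest adjusted p was 0.238. At an unadjusted p under 0.05, 12 lay higher and 0 lower, against 10.7% and 7.39% of all tested genes: Oasl1, Tap1, Rsad2, Iigp1, Irf7, Ifit1, Oasl2, Igtp, Gbp3, Xaf1, Cmpk2 and Ifih1. Without DV706, DV707 and DR716, 22 of 35 lay higher with a median of 0.15 (0.01 over all genes), and 4 lay higher at an unadjusted p under 0.05 (3.48% of all genes). Of the 35, 9 had the opposite sign there. Without all 5 arrays low in neuron markers, which leaves DV708 and DV710 as the diabetic vehicle arrays, 25 lay higher with a median of 0.19, and 10 lay higher at an unadjusted p under 0.05 (6.68%). There 10 genes lay higher without overlap and 1, Ddx58, lower, against 10.8% and 10.7% of all tested genes.

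**Figure D3:**
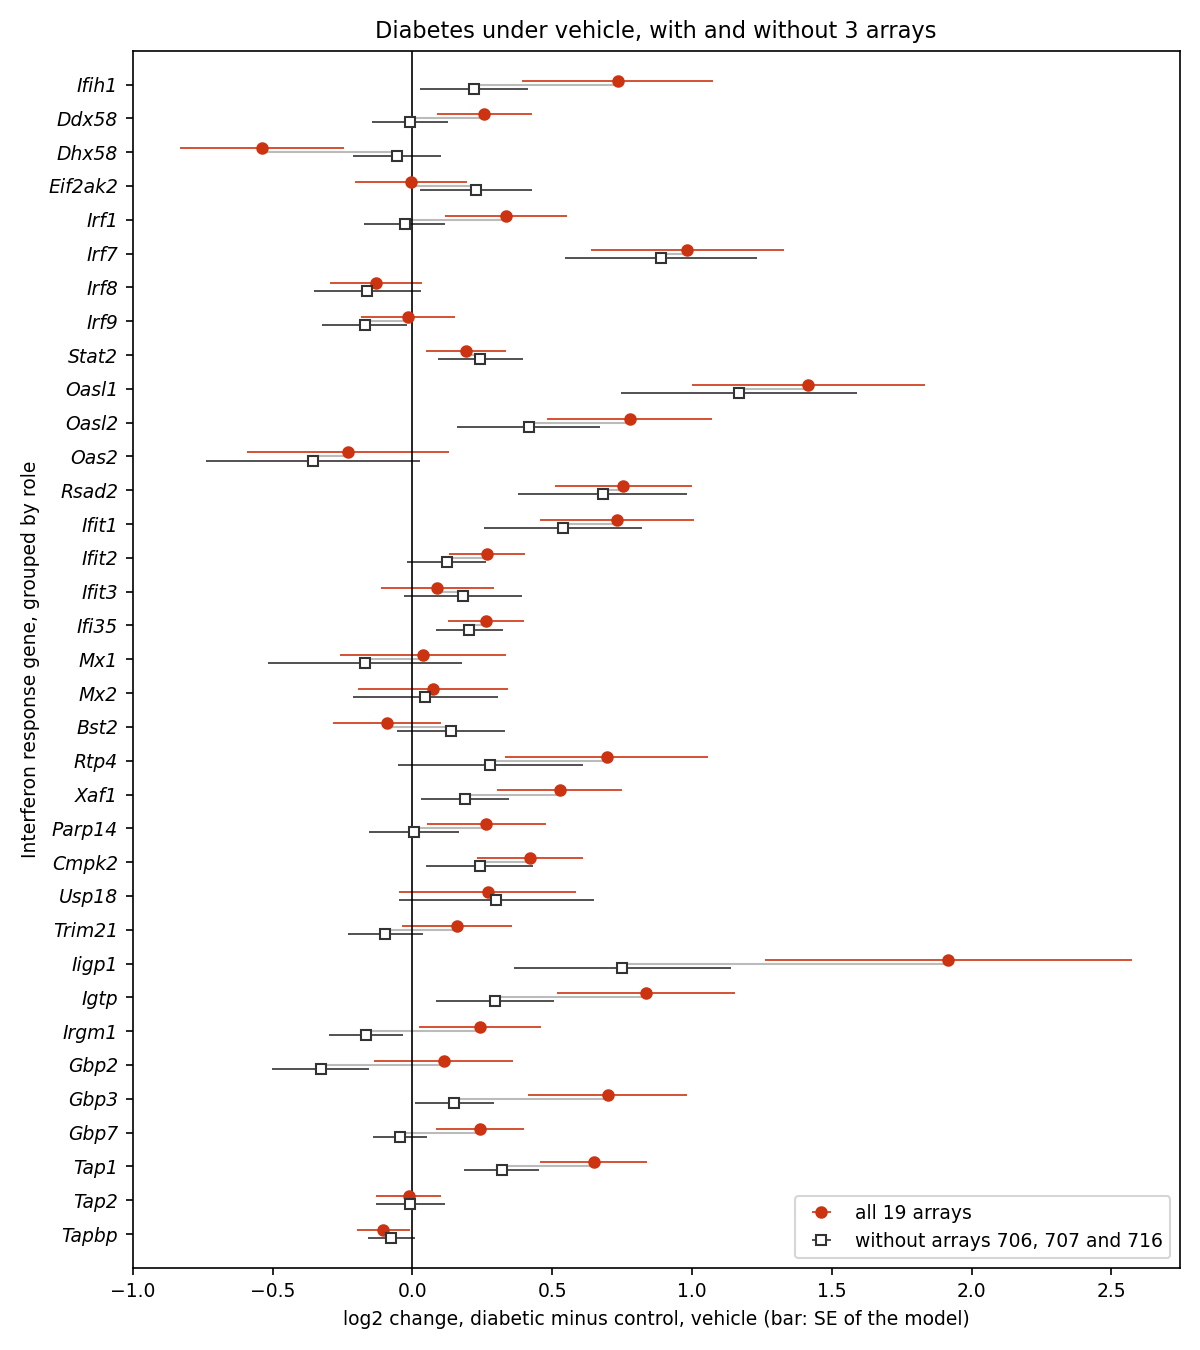
Log2 difference between diabetic and control nerve under vehicle for each of the 35 genes (rows, by role), with the standard error of the limma model as bars. Filled circles are all 19 arrays and open squares leave out DV706, DV707 and DR716. Iigp1 moves from 1.92 to 0.75 and Igtp from 0.84 to 0.30, while Irf7 stays between 0.89 and 0.98.

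Among the transcription factors, Irf7, which drives the amplification of type I interferon production, separated the vehicle groups. It was at 7.78, 7.71, 7.34 and 7.85 in CV702 to CV705 and at 9.32, 8.27, 8.70, 8.13 and 8.86 in DV706 to DV710. Every diabetic vehicle array was above every control vehicle array, as was so of 2 of the 35 genes (Irf7 and Tap1) and 2.63% of all tested genes, and of the same 2 genes without DV706, DV707 and DR716 (4.14%). The means were 8.66 ± 0.48 (SD, n = 5) and 7.67 ± 0.23 (SD, n = 4), a difference of 0.98 (SE 0.34), or 1.98-fold, with a limma adjusted p of 0.238. The difference was 0.89 without DV706, DV707 and DR716, 1.11 without the 5 arrays low in neuron markers, and 0.88 with the Gapdh difference as a covariate.

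The other transcription factors lay closer together. Irf1, induced early by interferon gamma, ran from 9.78 in CR711 to 11.11 in DV707 and differed by 0.34, or by -0.03 without the 3 arrays. Irf8, a factor of myeloid cells, ran from 8.33 in DV709 to 9.51 in CR714 and differed by -0.13. Irf9 and Stat2 belong to the complex that type I interferon activates. Irf9 differed by -0.02. Stat2 ran from 7.59 in DR719 to 8.24 in DV708. It differed by 0.19 with all arrays and by 0.42 (SE 0.13) without the 5 arrays low in neuron markers. The second of its 2 probe sets differed by -0.10 with all arrays. The median of the 5 factors was 0.19, and -0.03 without the 3 arrays.

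Antiviral effectors, 15 measured of 16 listed, lay higher in 13 cases with a median of 0.27, and in 13 with a median of 0.19 without the 3 arrays. Oasl1, related to the oligoadenylate synthetases and known as a brake on Irf7 translation, had the lowest unadjusted p of the 35. It was at 5.45, 5.21, 5.71 and 6.61 in CV702 to CV705 and at 7.24, 7.81, 6.53, 6.90 and 7.32 in DV706 to DV710. The groups touched only at CV705, which lay above DV708. The difference was 1.42 (SE 0.42), with a limma adjusted p of 0.238, and was 1.17 without the 3 arrays and 1.18 without the 5. Values of CV702, CV703, CR713 and CR714 lay under the 5.54 used as the filter on a gene's mean, and with 16 added to each intensity before the log the difference was 1.18.

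Rsad2, which encodes viperin, an enzyme that makes a chain-terminating nucleotide against viral polymerases, was at 9.62, 9.94, 9.02 and 9.95 in CV702 to CV705. In DV706 to DV710 it was at 10.55, 10.45, 9.53, 10.74 and 10.67. DV708 lay among the controls and the other diabetic vehicle arrays lay above all of them. The difference was 0.75 (SE 0.25), with a limma adjusted p of 0.238, and 0.68 without the 3 arrays. Rsad2 had 3 probe sets, all with the same sign, which gave differences of 0.03 to 0.75.

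Ifit1, which binds the caps of viral RNA, was at 9.11, 8.92, 8.67 and 9.57 in CV702 to CV705 and at 10.50, 9.68, 9.90, 9.06 and 9.85 in DV706 to DV710. Only DV709 lay within the control range. The difference was 0.73 (SE 0.27), and 0.54 without the 3 arrays. Ifit2, of the same family, was at 10.13, 9.99, 9.82 and 9.97 in CV702 to CV705 and at 10.57, 10.35, 9.85, 10.29 and 10.15 in DV706 to DV710. Again 1 diabetic array, DV708, lay within the control range, and the difference was 0.27 (SE 0.14).

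The other effectors at an unadjusted p under 0.05, and Rtp4, depended on the arrays included. Oasl2 ran from 8.67 in CR713 to 10.39 in DV706 and differed by 0.78, or 0.42 without the 3 arrays and 0.69 without the 5. Xaf1, a gene linked to cell death, ran from 10.61 in CV705 to 12.02 in DV706, and its difference of 0.53 became 0.19 without the 3 arrays and 0.06 without the 5. Cmpk2, a mitochondrial nucleotide kinase, ran from 7.88 in CR714 to 9.08 in DV706 and differed by 0.42, then 0.24 and 0.47. Each was highest in DV706. Rtp4, a chaperone of membrane receptors, ran from 8.18 in CR713 to 10.41 in DR716 and differed by 0.69, or 0.28 without the 3 arrays and 0.57 without the 5. Without the 5 arrays the vehicle groups did not overlap for Oasl2, Cmpk2 and Rtp4, each by its brightest probe set. The second probe sets of Cmpk2 and Rtp4 did overlap there. The 2 probe sets of Rtp4 were not alike by array, with the second at 6.54 in DV706 where the first was at 10.35.

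Of the effectors not yet described, 5 of 7 lay higher under vehicle. Ifit3 ran from 10.43 in CR715 to 11.71 in DR720 and differed by 0.09. Ifi35 ran from 12.36 in CV705 to 13.14 in DR716 and differed by 0.26, with DV710 the 1 diabetic vehicle array inside the control vehicle range. Parp14, an ADP-ribosyltransferase, ran from 10.05 in CV704 to 11.29 in DR716 and differed by 0.26, but by 0.00 without the 3 arrays. The antiviral dynamin-like GTPases and tetherin were near 0. Mx1 ran from 6.06 in DV709 to 7.99 in DR720 and differed by 0.04. Mx2 ran from 5.56 in DV707 to 6.99 in DV706, a range set by 2 arrays of 1 group, and differed by 0.07. Bst2, which tethers budding virus to the cell, ran from 8.31 in DV707 to 9.41 in DV710 and differed by -0.09. Oas2, an oligoadenylate synthetase, ran from 7.03 in CR713 to 8.97 in DR716 and was one of the 2 effectors that lay lower, by -0.23.

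The RNA sensors divided. Ifih1, a helicase that senses long double-stranded RNA, ran from 8.82 in CR713 to 10.71 in DV707 and differed by 0.73 (SE 0.34), or 0.22 without the 3 arrays. Ddx58, the helicase RIG-I, ran from 8.53 in DR720 to 9.68 in DV706, and its difference of 0.26 was -0.01 without the 3 arrays. Eif2ak2, the kinase PKR that halts translation, ran from 8.66 in DR720 to 9.63 in DV708 and differed by -0.01. Thus 2 of the 4 sensors lay higher. Dhx58, the helicase LGP2 that tunes the other sensors, was at 7.57, 7.28, 7.24 and 7.25 in CV702 to CV705 and at 5.53, 6.62, 6.99, 7.27 and 7.58 in DV706 to DV710. The lowest 2 values were those of DV706 and DV707, the arrays in which most other members were high. The difference was -0.54 (SE 0.29), and -0.06 without the 3 arrays, and the other 2 of its 3 probe sets had the opposite sign.

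The interferon-inducible GTPases depended most on single arrays. All 6 lay higher under vehicle, with a median of 0.47, but without the 3 arrays 3 of 6 did, with a median of 0.05, and without the 5 arrays 3 of 6, with a median of 0.03. Relative to their means, their median level was 1.05 in DV706, 1.04 in DV707 and 0.38 in DR716, and between -0.50 and 0.11 elsewhere. Iigp1, a GTPase of the immunity-related family that disrupts parasite vacuoles, was at 8.09, 8.45, 7.33 and 8.51 in CV702 to CV705. In DV706 to DV710 it was at 11.77, 11.76, 9.21, 8.16 and 9.16. DV709 lay inside the control range, and DV706 and DV707 exceeded every other array of the study. The difference was 1.92 (SE 0.66), with a limma adjusted p of 0.238, and was 0.75 without the 3 arrays, 0.82 with the Gapdh difference as a covariate and 1.09 without the 5 arrays. Both probe sets of Iigp1 had the same sign, at 1.42 and 1.92.

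Igtp, of the same family, was at 10.99, 10.52, 10.33 and 10.36 in CV702 to CV705 and at 12.27, 12.12, 10.88, 11.31 and 10.35 in DV706 to DV710. The groups overlapped through DV708 and DV710. The difference was 0.84 (SE 0.32), 0.30 without the 3 arrays and 0.07 without the 5. Irgm1, which regulates the other GTPases of its family, was at 8.51, 8.27, 8.43 and 8.79 in CV702 to CV705 and at 9.29, 9.41, 8.35, 8.18 and 8.46 in DV706 to DV710. Its difference of 0.24 became -0.17 without the 3 arrays. The guanylate-binding proteins had the same pattern. Gbp2 ran from 10.10 in CR713 to 11.53 in DV707 and differed by 0.11, then -0.33. Gbp3 ran from 9.40 in CR713 to 11.10 in DV706 and differed by 0.70, then 0.15. Gbp7 ran from 10.82 in CR711 to 11.81 in DV706 and differed by 0.24, then -0.04.

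Of the genes that load peptides on MHC class I, Tap1 alone lay higher. Tap1, a subunit of the transporter that carries peptides into the endoplasmic reticulum, was at 8.79, 8.62, 8.51 and 8.51 in CV702 to CV705 and at 9.66, 9.85, 8.92, 8.84 and 9.02 in DV706 to DV710. The groups did not overlap, with or without DV706 and DV707. The difference was 0.65 (SE 0.19), with a limma adjusted p of 0.238, and 0.32 without the 3 arrays. All 4 probe sets of Tap1 had that sign, from 0.13 to 0.65. Tap2, the other subunit, ran from 8.96 in DV706 to 9.44 in CR715 and differed by -0.01. Tapbp, tapasin, ran from 12.95 in DV706 to 13.44 in DR716 and differed by -0.10. Of the ISG15 and ubiquitin genes, Usp18, which removes ISG15 from proteins, ran from 7.90 in CR713 to 9.93 in DR716 and differed by 0.27, or by 0.63 without the 5 arrays. Trim21, an antibody receptor inside cells, ran from 10.07 in CV703 to 10.99 in DV706 and differed by 0.16, but by -0.10 without the 3 arrays.

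Under rosiglitazone, interferon response genes lay higher in diabetic than in control nerve in 30 of 35 cases, where 51.7% of all tested genes did, with a median of 0.16 (0.01 over all genes). In limma, 0 passed an adjusted p of 0.05, and the smallest adjusted p was 1. At an unadjusted p under 0.05, 3 lay higher, Irf7, Ifit1 and Ifit2, and 0 lower, against 0.468% and 0.817% of all tested genes. Without DV706, DV707 and DR716, 25 of 35 lay higher with a median of 0.07, and 4 lay higher at an unadjusted p under 0.05, Irf7, Ifit2, Ifit3 and Dhx58 (1.13%). Without the 5 arrays low in neuron markers, 27 lay higher with a median of 0.12, and Irf7, Rtp4, Usp18 and Dhx58 lay higher at an unadjusted p under 0.05 (2.32%). Those 4 did not overlap between the groups there, as for 1.73% of all tested genes. The second Rtp4 probe set did overlap, with CR714 at 7.19 above DR719 at 7.13. With all 19 arrays, all 6 GTPases lay higher, with a median of 0.16, and the 15 effectors had a median of 0.24. Without the 3 arrays 5 of the 6 GTPases lay higher, with a median of 0.10, and the effectors had a median of 0.21.

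Irf7 was at 7.73, 7.56, 6.90, 7.40 and 8.74 in CR711 to CR715 and at 9.66, 8.30, 8.19, 8.58 and 9.05 in DR716 to DR720. All diabetic arrays lay above all controls but CR715, which was one of the arrays low in neuron markers. The difference was 1.09 (SE 0.33), or 2.12-fold, with means of 8.75 ± 0.60 and 7.67 ± 0.68 (SD, n = 5 each) and a limma adjusted p of 1. It was 0.86 without DR716 and 1.13 (SE 0.21) without the 5 arrays low in neuron markers. Ifit1 was at 9.76, 9.51, 8.67, 9.06 and 9.38 in CR711 to CR715 and at 10.34, 10.11, 9.77, 9.49 and 9.60 in DR716 to DR720. The groups overlapped, with 3 diabetic arrays above every control, and the difference was 0.59 (SE 0.26), or 0.47 without the 3 arrays. Ifit2 was at 9.84, 10.17, 10.11, 9.84 and 9.61 in CR711 to CR715 and at 10.13, 10.33, 10.07, 10.26 and 10.22 in DR716 to DR720. Its groups overlapped as well, and the difference was 0.29 (SE 0.13), or 0.31 without the 3 arrays.

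Oasl1 was at 6.15, 6.0, 4.44, 5.47 and 6.42 in CR711 to CR715 and at 7.64, 6.14, 6.05, 6.63 and 5.97 in DR716 to DR720. DR717, DR718 and DR720 lay within the control range, and the difference was 0.79 (SE 0.39), or 0.50 without the 3 arrays. Iigp1 was at 8.22, 8.37, 7.69, 8.29 and 8.91 in CR711 to CR715 and at 10.38, 8.44, 8.14, 9.52 and 8.32 in DR716 to DR720. Only DR716 and DR719 lay above the controls, and the difference was 0.66 (SE 0.62), or 0.31 without the 3 arrays. Tap1 was at 9.19, 8.69, 8.77, 8.98 and 9.10 in CR711 to CR715 and at 9.26, 8.90, 8.76, 9.14 and 9.09 in DR716 to DR720. Only DR716 lay above the controls, the other diabetic arrays lay within their range, and the difference was 0.08. Of the 4 probe sets of Tap1, 1 had that sign, and their differences ran from -0.17 to 0.08.

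Rsad2 was at 10.02, 9.83, 9.58, 9.17 and 9.37 in CR711 to CR715 and at 9.76, 10.13, 9.81, 9.63 and 9.84 in DR716 to DR720. Only DR717 lay above every control, and the difference was 0.24 (SE 0.23). Igtp was at 10.74, 10.34, 10.22, 10.68 and 10.43 in CR711 to CR715, and of the diabetic arrays given the drug only DR716, at 11.22, lay above them. The difference was 0.09 (SE 0.30), and -0.07 without the 3 arrays. Dhx58 was at 7.16, 7.34, 7.28, 7.23 and 7.74 in CR711 to CR715, with CR715 the highest of them. DR719 and DR720 lay above it, and the difference was 0.20 (SE 0.28), or 0.31 without the 3 arrays and 0.40 without the 5.

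**Figure D4:**
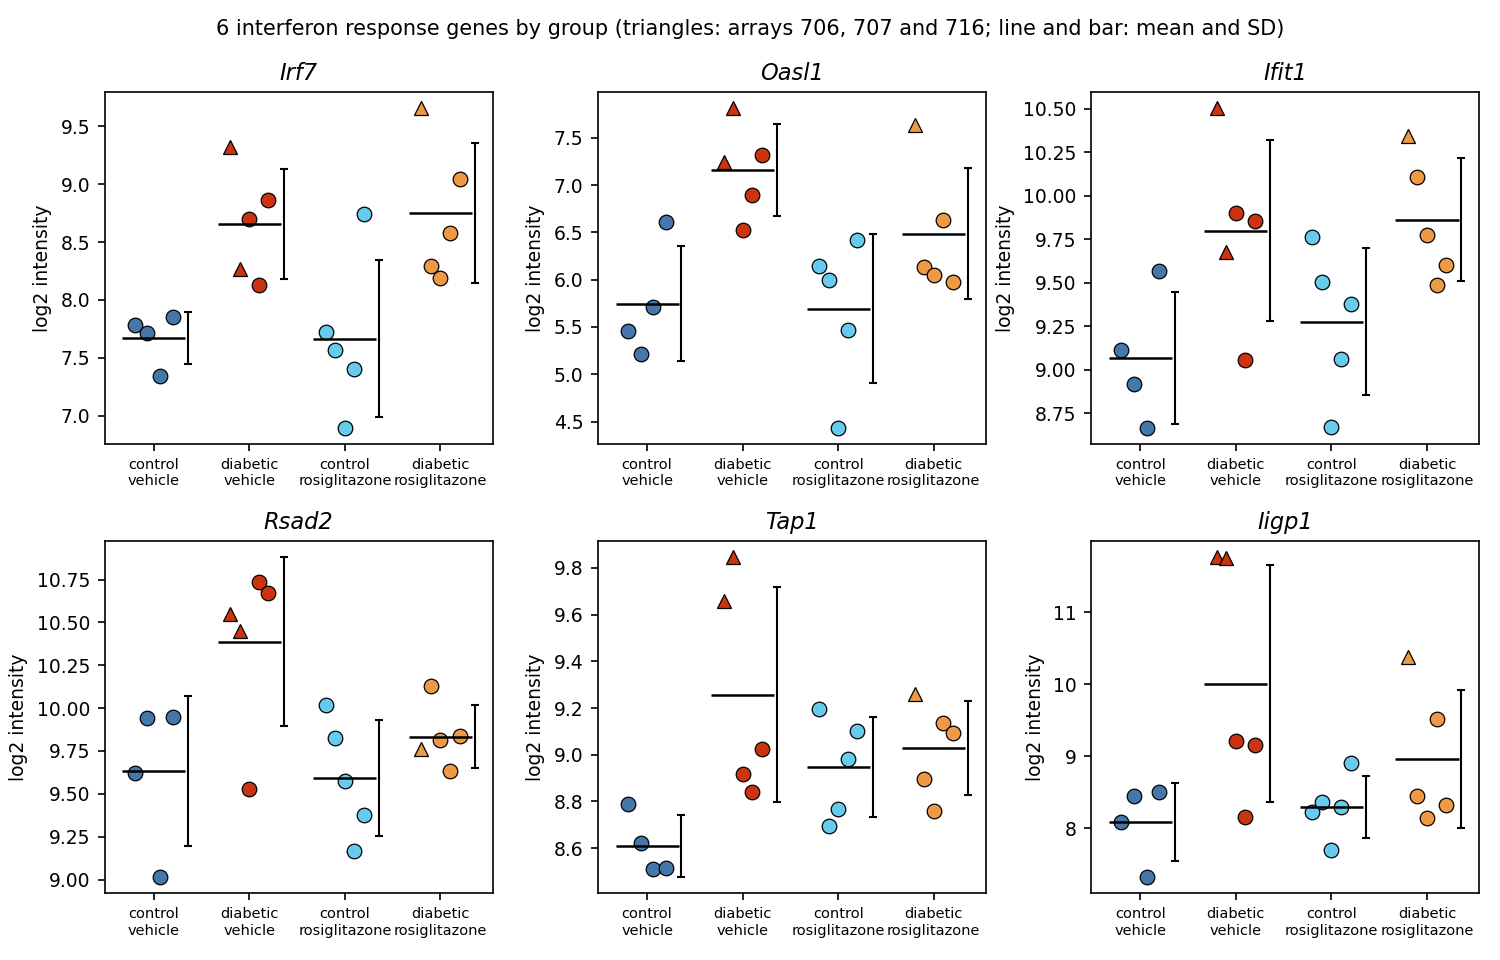
Log2 intensity of 6 interferon response genes by group, 1 point per array, with the group mean as a line and the SD as a bar. Triangles are DV706, DV707 and DR716. In Irf7 the lowest diabetic array (8.13) lies above 8 of the 9 control arrays, and in Iigp1 the triangles carry the highest values.

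To describe diabetes over both treatments, its effects under vehicle and under rosiglitazone were averaged, a comparison added after the data were seen. Of the 35 genes, 29 lay higher, against 52.6% of all tested genes, with a median of 0.21. At an unadjusted p under 0.05, 12 lay higher and 0 lower, against 6% and 4.28% of all tested genes. The smallest limma adjusted p was 0.457. The 3 with the smallest p were Irf7, at 1.035 (SE 0.24), Oasl1, at 1.10 (SE 0.29), and Ifit1, at 0.66 (SE 0.19). Without DV706, DV707 and DR716 the median was 0.12, 5 lay higher at an unadjusted p under 0.05 (2.9%), and Irf7 differed by 0.88. All 10 diabetic arrays lay above the median of the 9 controls for Irf7, Oasl1 and Gbp3, as for 1.42% of all tested genes, and 0 of the 13460 genes separated the 10 from the 9.

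On the 14 arrays with neuron transcripts, 28 of 35 lay higher in diabetic nerve with a median of 0.17, and 11 did so at an unadjusted p under 0.05 (4.51%). Irf7 differed by 1.12 (SE 0.17), or 2.17-fold, with a limma adjusted p of 0.155. The 6 diabetic arrays ran from 8.19 to 9.05 and the 8 controls from 6.90 to 7.85, without overlap. Rtp4, picked out after its values were seen, also did not overlap there, at 9.13 to 9.61 in diabetic and 8.18 to 9.12 in control arrays, a gap smaller than the spread within either. Of all tested genes, 0.0743% lay higher without overlap in this way. The second Rtp4 probe set did overlap, at 7.13 to 7.49 in diabetic and 6.29 to 7.32 in control arrays. Oasl1 did overlap, with 3 of the 8 controls above the lowest diabetic array.

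In diabetic mice, the interferon response genes lay in both directions with rosiglitazone: 14 lay higher and 21 lower, where 47.2% of all tested genes lay higher, with a median of -0.04 (-0.02 over all genes). In limma, 0 passed an adjusted p of 0.05, and the smallest adjusted p was 0.497. At an unadjusted p under 0.05, Dhx58 lay higher and Igtp, Rsad2 and Ddx58 lower, against 4.13% and 5.56% of all tested genes. Without DV706, DV707 and DR716, 20 lay higher and 15 lower, the median was 0.02, and Dhx58 was the 1 gene at an unadjusted p under 0.05 (1.2% of all genes lay higher at it). Without the 5 arrays low in neuron markers, 8 lay higher and 27 lower, with a median of -0.12, and at an unadjusted p under 0.05 Dhx58 lay higher (2.32%) and Stat2 lower (1.91%). Thus the balance of directions turned with the arrays included. The second Stat2 probe set overlapped without the 5 arrays, at 5.88 in DV708, 6.12 in DV710 and 5.94 to 6.35 in DR717 to DR720. With all arrays it differed by 0.28, where the first differed by -0.09. This comparison shares the diabetic vehicle arrays with that of diabetes under vehicle.

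Dhx58 was at 7.11, 7.59, 7.50, 7.79 and 7.75 in DR716 to DR720, against the diabetic vehicle values given above. The DR arrays lay above all but DV709 and DV710, with DR716 the lowest of them. The difference was 0.75 (SE 0.28), with a limma adjusted p of 0.497, and 0.38 without the 3 arrays. Igtp was at 11.22, 10.45, 10.36, 10.56 and 10.28 in DR716 to DR720. The highest DR array was DR716 and the others lay within the range of the controls. The difference from vehicle was -0.81 (SE 0.30), and -0.43 without the 3 arrays. Rsad2, with the DR values given above, lay between DV708 and the other diabetic vehicle arrays. The difference was -0.55 (SE 0.23), and -0.46 without the 3 arrays. Irf7 differed by 0.10 (SE 0.33) between diabetic mice with and without the drug, and by -0.25 (SE 0.26) without the 5 arrays low in neuron markers. Gbp2 did not overlap between the groups once the 3 arrays were left out, as for 1.95% of all tested genes, and lay higher under the drug by 0.36. Without the 5 arrays Gbp2 lay higher without overlap, by 0.31 (5.59% of all tested genes). Cmpk2 and Trim21 lay lower without overlap, by -0.35 and -0.23 (4.03%). The second probe set of Cmpk2 overlapped there, at 5.67 in DV708, 6.16 in DV710 and 5.91 to 6.49 in DR717 to DR720. That of Trim21 overlapped too, at 6.56, 7.04 and 6.96 to 7.28. With all arrays these second probe sets differed by 0.35 for Cmpk2 and 0.13 for Trim21, opposite in sign to the first.

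In control mice, 20 genes lay higher with rosiglitazone and 15 lower, where 50.6% of all tested genes lay higher, with a median of 0.02. In limma, 0 passed an adjusted p of 0.05, with a smallest adjusted p of 1, and 0 had an unadjusted p under 0.05 in either direction, against 1.48% higher and 1.35% lower of all tested genes. Tap1, with the CR and CV values given above, differed by 0.34 (SE 0.19), and CR712 and CR713 lay within the control vehicle range. Tap1 was the 1 gene at an unadjusted p under 0.05 without DV706, DV707 and DR716 (3.14% of all genes) and without the 5 arrays (4.58%). Those 3 arrays are in neither control group. Without them the Tap1 difference was still 0.34, and only the spread estimated over all groups changed. Irgm1 was at 8.22, 8.23, 8.02, 8.49 and 8.31 in CR711 to CR715, with 3 of 5 below every control vehicle array, and differed by -0.24 (SE 0.22). In DR716 to DR720 it was at 8.70, 8.39, 8.26, 8.53 and 8.39, overlapping the CR arrays. Irf9 was at 9.92, 9.79, 9.72 and 10.06 in CV702 to CV705 and at 9.89, 9.51, 9.41, 9.82 and 9.96 in CR711 to CR715. It differed by -0.16 (SE 0.17), with wide overlap. For completeness, Irf9 was at 9.98, 10.21, 9.79, 9.45 and 9.88 in DV706 to DV710 and at 10.36, 9.61, 9.93, 9.86 and 9.75 in DR716 to DR720.

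The test of whether the drug's difference depended on diabetes found 0 of 35 genes past an adjusted p of 0.05 in limma, with a smallest adjusted p of 0.748. Of the interaction terms, 10 were above and 25 below 0, where 48.2% of all genes were above, with a median of -0.13 (-0.02 over all genes), and -0.004 without DV706, DV707 and DR716. Tap1 was the 1 gene at an unadjusted p under 0.05, at -0.57 (SE 0.26), against 2.89% of all tested genes below 0 and 1.88% above 0 at that threshold. That term was -0.30 without the 3 arrays. Dhx58 and Igtp followed, at 0.73 (SE 0.40) and -0.74 (SE 0.44), and at 0.36 and -0.36 without the 3 arrays. For Irf7 the term was 0.10 (SE 0.47), beside diabetic differences of 0.98 under vehicle and 1.09 under the drug.

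Other genes of the pathway were described from a list of 92, of which 80 had a probe set and 71 passed the filter. Of 7 listed genes of the interferons themselves, 5 had a probe set and 0 passed the filter. Under vehicle, 46 of the 71 lay higher in diabetic nerve and 25 lower, with 4 higher and 3 lower at an unadjusted p under 0.05. Over all tested genes 52.9% lay higher, and 10.7% lay higher and 7.39% lower at that threshold. Without the 3 arrays 32 lay higher and 39 lower, with a median of -0.01 (0.01 over all genes). The share of all tested genes that lay higher without those arrays is not given here. Slfn5, a Schlafen family member, differed by -0.86 (SE 0.29), Ifngr2, a chain of the interferon gamma receptor, by -0.56 (SE 0.21), and Mavs, the mitochondrial adaptor of the RNA sensors, by 0.60 (SE 0.24). Without the 3 arrays these differences were -0.79, -0.33 and 0.29, and without the 5 arrays -0.56, -0.39 and 0.13. Under rosiglitazone, 56 of 71 lay higher in diabetic nerve and 15 lower, with 1 gene, Lgals9, at an unadjusted p under 0.05. Over all tested genes 51.7% lay higher, and 0.468% did so at that threshold. Without the 3 arrays 41 lay higher and 30 lower, with a median of 0.04 (0.002 over all genes). Lgals9, the lectin galectin-9, was at 11.00 ± 0.12 in diabetic and 10.62 ± 0.31 in control mice given the drug (SD, n = 5 each), a difference of 0.39 (SE 0.14), and 0.38 without the 3 arrays. It was followed by the helicase Ddx60, at 0.65 (SE 0.37), and the nucleic acid sensor Zbp1, at 0.72 (SE 0.43), which were at 0.54 and 0.45 without the 3 arrays.

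With the drug in diabetic mice, 29 of the 71 lay higher and 42 lower, with 4 higher and 3 lower at an unadjusted p under 0.05. Over all tested genes 47.2% lay higher, and 4.13% lay higher and 5.56% lower at that threshold. Without the 3 arrays the balance turned, to 46 higher and 25 lower, with a median of 0.06 (-0.01 over all genes). The share of all tested genes that lay higher there is not given here. Ptpn11, a signalling phosphatase, differed by -0.33 (SE 0.10), Psmb10, an immunoproteasome subunit, by 0.41 (SE 0.13), and Sp100, a nuclear body protein, by 0.50 (SE 0.15). Without the 3 arrays these differences were -0.23, 0.23 and 0.36, and without the 5 arrays -0.18, 0.12 and 0.25. In control mice 30 lay higher and 41 lower, with 1 lower at an unadjusted p under 0.05, where 50.6% of all tested genes lay higher and 1.35% lay lower at that threshold. That gene was Ube2l6, the conjugating enzyme for ISG15, at -0.71 (SE 0.29) with all arrays. It was ahead of Ptpn2, a phosphatase that dampens JAK and STAT signalling, at -0.24 (SE 0.12), and Lgals9, at -0.21 (SE 0.15). Without the 5 arrays these differences were -0.88, -0.26 and -0.34. There 19 of the 71 lay higher and 52 lower, with a median of -0.07 (0.02 over all genes). For the interaction, Sp100, Lgals9 and Slfn5 had terms of 0.58 (SE 0.22), 0.50 (SE 0.21) and 0.90 (SE 0.40), and of 0.43, 0.33 and 0.86 without the 3 arrays. In limma, 0 of these genes passed an adjusted p of 0.05 in any of these comparisons.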

How the data were processed

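The deposited values are linear-scale intensities, 1 for each probe set on each array, made by the authors with RMA, per the submitters' processing notes. How RMA's log2 values came to be linear, and the software version, are not given in the sources used here. Per the series' design text, 5 mice per group were arrayed and 1 control array was left out after quality control. RNA was prepared with RNeasy columns and labelled with the NuGEN Ovation kit, per the labels' protocols. Groups came from the sample titles.

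Here the deposited intensities were log2-transformed with no pseudocount. Of 45101 probe sets, 64 controls were left out, and 34945 had 1 gene symbol in the platform annotation, 932 several and 9160 none. Gene identifiers of 34741 matched the reference gene table. Each of 18193 genes was represented by its brightest probe set, and the 13460 with a mean log2 intensity above 5.54, the 40th percentile of probe sets, were tested with limma 3.58.1 (lmFit and eBayes, R 4.3.3) on 4 group means, with Benjamini-Hochberg adjustment over all of them. The script was tested on simulated data. No 2 arrays held identical values, and p-values measure the spread between these arrays, whose number limits the precision. The members and lists were chosen with earlier results of these data known, so the lists have no test. Values in every array are given for the 5 members with the smallest p in diabetes under vehicle and the 3 in each other comparison, and other pathway genes are named where among the 3 smallest p of their list. Alternatives left out each array, arrays 706, 707 and 716, or those with 709 and 715. Others used quantile normalization, a pseudocount of 16, no filter, the mean of a gene's probe sets, array weights, the Gapdh covariate, or only the groups compared.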

Additional observations from a re-analysis of the deposited data

Results flagged for a closer look

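In each of the 4 groups, the 11 genes given in every array and the median deviation of the 35 genes were examined for a single array far from the rest. Among these 48 sets of values 2 were found, where chance gives about 5%. Rsad2 in the diabetic vehicle group was at 9.53 in DV708, far below the other 4 arrays, which lay between 10.45 and 10.74. Dhx58 in the control vehicle group was at 7.57 in CV702, above the other 3 arrays, which lay between 7.24 and 7.28.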

How the results depend on the processing

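In each of the 28 other settings (27 for the interaction and the averaged comparison), limma gave 0 of 35 genes an adjusted p under 0.05. Genes given in every array kept their sign in the comparison that chose them, while among all 35 the sign turned for 9 under vehicle and 12 for rosiglitazone in diabetic mice without DV706, DV707 and DR716. The median interaction term was -0.13 and became 0.10 with the Gapdh covariate, and the cause was not tested. With single arrays left out, the median difference ran from 0.18 (without DV706) to 0.33 (without DV709) for diabetes under vehicle. It ran from -0.16 to 0.0002 for rosiglitazone in diabetic mice, from -0.04 (without CR715) to 0.10 (without CR713) for rosiglitazone in control mice, from 0.07 (without DR716) to 0.19 for diabetes under rosiglitazone, and from -0.22 to -0.01 for the interaction. Counts at an unadjusted p under 0.05 moved more. For diabetes under vehicle they were 5 without DV706, 14 without DV709, 4 with the Gapdh covariate and 7 with only the groups compared. For diabetes under rosiglitazone they were 1 without CR714, 5 without CR711, 8 with array weights and 6 with the Gapdh covariate. Genes lower with rosiglitazone in diabetic mice numbered 0 without DV706 and 8 without DR716. The shares of all tested genes at that threshold in these settings are not given here, so these counts have no background beside them. Over all genes, 4 passed an adjusted p of 0.05 for diabetes under vehicle without DV710, and 20 for rosiglitazone in control mice with array weights. Among 15 genes with several probe sets above the filter, up to 9 disagreed in sign of deviation on 1 array. No paired analysis was possible because the groups share no replicate number.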
